A study of Mus musculus with 35 samples.

Results

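The genes of macrophages and dendritic cells were followed in whole-kidney RNA from diabetic OVE26 mice and their controls. The set holds 38 genes, chosen by name as genes of these cell types, out of 18193 genes measured. Each gene was read from its brightest Affymetrix probe set, the group of array oligonucleotides designed against its transcript. Of the 38 genes, 35 were bright enough to be tested, among 13004 tested genes in all. Itgam, Cd163 and Ms4a6d lay below the brightness filter, a mean log2 signal of 5.27 over all arrays, and are given by their values alone. Aif1, with a mean of 5.34, passed only because of the diabetic kidneys of 8 months. Without those arrays its mean was 5.15.

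The series holds 35 arrays of FVB/NJ kidneys. The groups were diabetic mice with 6 arrays and control mice with 6 arrays at 2 months, diabetic mice with 7 arrays and control mice with 4 arrays at 4 months, and diabetic mice with 6 arrays and control mice with 6 arrays at 8 months. OVE26 mice carry a calmodulin transgene under an insulin promoter, so the diabetes follows from damage to the pancreatic beta cells, and the transgene is not directed at the kidney. The sources used here do not name the control genotype beyond the FVB/NJ strain, nor do they say that arrays of a group come from separate animals, so the p-values measure the spread between arrays.

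Macrophages and dendritic cells form a network around the renal tubules. They take up debris through Fc and scavenger receptors, digest it in lysosomes and present peptides on MHC class II molecules. Several of their genes encode parts of single complexes, such as the chains of C1q, the class II molecules and the phagocyte oxidase, and the transcription factor PU.1, the product of Spi1, is required for the lineage. In whole-kidney RNA a change in the number of such cells and a change in the RNA per cell cannot be told apart.

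Some arrays stood apart from the rest of their age. At 2 months, arrays 5 and 6 of both groups correlated with arrays 1 to 4 at r between 0.969 and 0.992, while arrays 1 to 4 correlated among themselves at 0.993 to 0.998. Control array 6 of that age had a log2 ratio of 2.56 between the 3' and 5' probe sets of beta-actin, against 0.81 to 1.35 on the other 11 arrays. At 4 months, control arrays 3 and 4 had signals of 7.84 and 8.17 for the clock gene Arntl, while the diabetic arrays ranged from 5.54 to 6.21 and control arrays 1 and 2 both stood at 6.14 to 6.15. Counts of the macrophage and dendritic cell genes that rest on these arrays are given with and without them.

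The macrophage and dendritic cell genes stood higher in diabetic kidneys at 8 months. Of the 35 tested genes, 32 rose and 0 fell, with a median log2 difference of 1.01, diabetic minus control. Without Aif1, which its own high group brought past the filter, 31 of 34 rose. The differences of the 32 ran from 0.24 for Fcgr1 to 2.69 for Lyz2, and 18 genes rose at least 2-fold. A gene is called here when its limma p, adjusted over all 13004 genes, is under 0.05. By that rule 9.87% of all genes rose at 8 months and 6.95% fell, and the median difference over all genes was -0.00036. Rises of at least 2-fold made up 51.4% of the tested members and 0.961% of all tested genes.

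At 2 months 0 of the 35 genes were called in either direction by limma, while 0.754% of all genes rose and 1.78% fell, or 2.54% in all. At an unadjusted p under 0.05 the count was 1, Csf1r, while 15.2% of all genes passed. The median difference was -0.05 for the macrophage and dendritic cell genes, and -0.01 over all genes. Csf1r was called at that age under 3 alternatives, given below with its values. Fcgr2b, with a difference of -0.26, was called lower only under array weights (adjusted p = 0.0195). At 4 months Lyz1 rose and Fcgr2b fell, which is 1 gene in each direction, and the median difference was 0.05 against 0.01 over all genes. Of all genes 0.415% rose and 0.554% fell at 4 months, or 54 and 72 genes, a split that became 71 and 58 genes when all arrays were quantile normalized. That scaling left the calls of the macrophage and dendritic cell genes at 2 of 35 at 4 months and at 32 of 35 at 8 months.

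**Figure D1:**
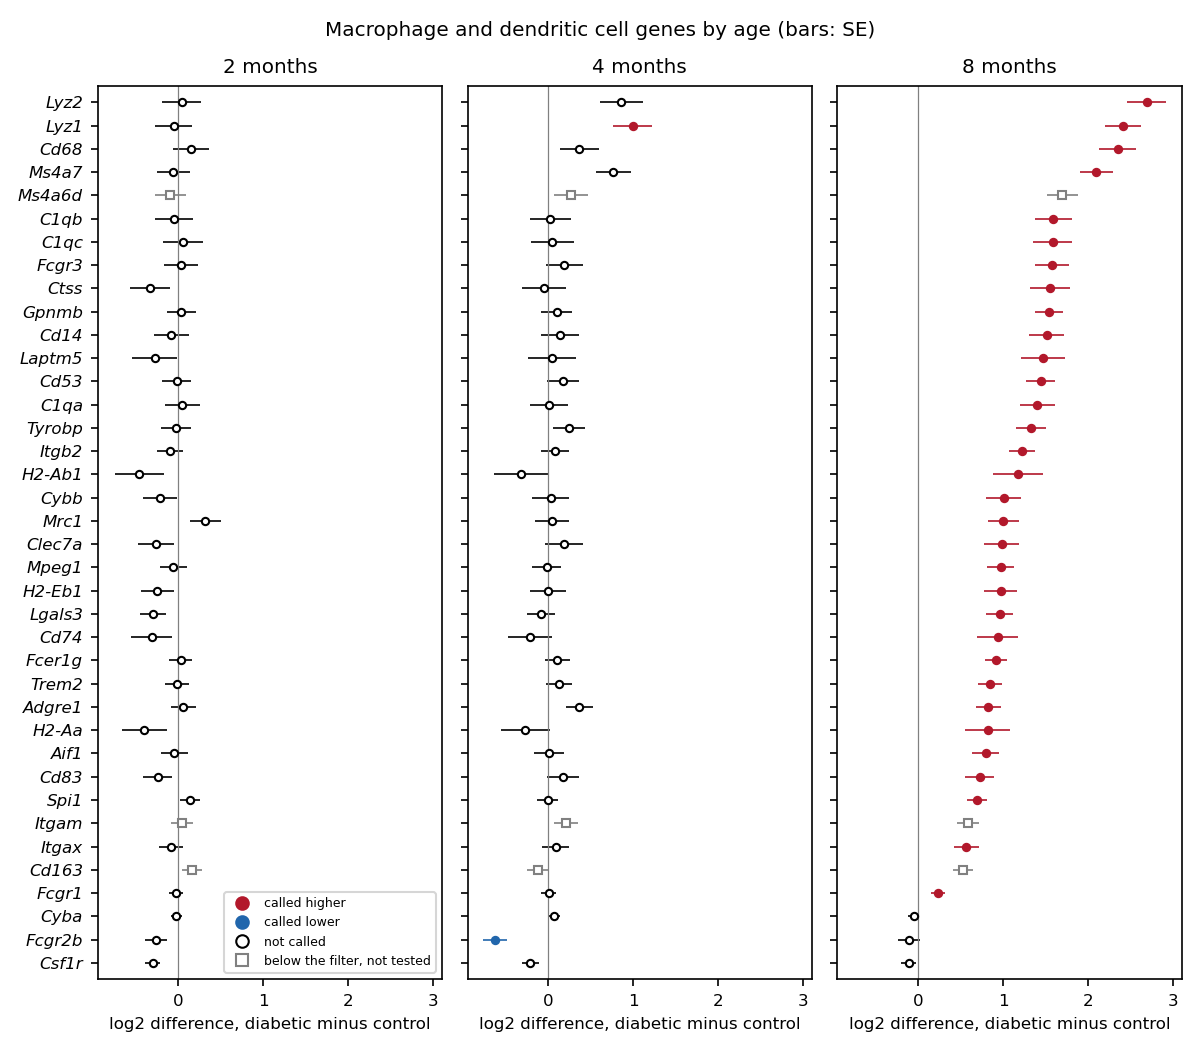
Log2 difference, diabetic minus control, with the standard error of the limma fit, for the 38 macrophage and dendritic cell genes at 2, 4 and 8 months, in the order of the 8-month difference. At 8 months the values run from -0.11 for Csf1r to 2.69 for Lyz2, while at 2 months no symbol is filled and at 4 months those of Lyz1 and Fcgr2b are.

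At 8 months the arrays of the diabetic and control groups did not overlap for 21 of the 35 tested genes, all higher in diabetic kidneys. Over all tested genes 5.41% were separated in that direction. The other 11 called genes overlapped in part. They were Aif1, Laptm5, Itgax, Fcgr1, Clec7a, Cd74, H2-Aa, H2-Ab1, H2-Eb1, Cd83 and Cybb. The 3 genes without a call were Csf1r, Fcgr2b and Cyba.

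The lineage regulators and general macrophage genes were led by Cd68, a membrane glycoprotein of macrophage lysosomes. At 8 months the Cd68 signal ran from 7.15 over a median of 7.57 to 9.23 in diabetic kidneys, and from 5.19 over a median of 5.59 to 5.92 in control kidneys. Every diabetic array lay above every control array. Cd68 rose by 2.35 ± 0.21, or 5.09-fold (adjusted p = 2.32e-09). At 4 months its groups overlapped, with means of 5.70 ± 0.30 (SD, n = 7) in diabetic and 5.33 ± 0.31 (SD, n = 4) in control kidneys.

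Spi1, which encodes the transcription factor PU.1, had signals from 6.02 over a median of 6.29 to 7.12 in diabetic kidneys of 8 months and from 5.52 over a median of 5.66 to 5.89 in control kidneys. The groups were apart, and Spi1 rose by 0.70 ± 0.11 (adjusted p = 3.08e-05). Adgre1, the gene of the F4/80 antigen, rose by 0.83 ± 0.15, with 7.60 ± 0.48 in diabetic and 6.77 ± 0.18 in control kidneys (SD, n = 6 each). Mpeg1, which encodes a pore-forming protein of macrophages, rose by 0.97 ± 0.16. The arrays of the groups were also apart for both of these genes.

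Cd53, a leukocyte tetraspanin, rose by 1.44 ± 0.17, with 8.32 ± 0.65 in diabetic and 6.88 ± 0.10 in control kidneys (SD, n = 6 each). A dim second probe set below the filter gave 0.11 ± 0.07, and the mean of both gave a rise of 0.77. Aif1, the gene of the calcium-binding protein IBA1, differed by 0.80 ± 0.16, and its call carries little weight because the group where it is high brought it past the filter. Its diabetic arrays from 5.45 to 7.05 reached into the control range of 5.17 to 5.66. Laptm5, a lysosomal membrane protein of blood cells, rose by 1.47 ± 0.26 on its brightest probe set. Its probe sets did not give a single size. A pair of others rose by 0.76 and 0.51, and another of like brightness gave -0.07 ± 0.15, which was not called.

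Csf1r encodes the receptor through which CSF1 and IL-34 keep macrophages alive, and it was the only lineage gene of the 8 that was not called at 8 months. At 8 months its signal ran from 10.69 over a median of 11.14 to 11.47 in diabetic kidneys and from 11.14 over 11.21 to 11.38 in control kidneys. The groups overlapped, and the difference was -0.11 ± 0.09 (adjusted p = 0.463), with a 95% interval from -0.29 to 0.07. The other probe sets of the gene gave -0.07 and -0.08 at that age, also without a call. A rise of the size found for the other lineage genes lies outside that interval.

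At 2 months Csf1r was the gene of the set closest to a call. Diabetic kidneys had 10.71, 10.80 and 10.88 as the lowest, median and highest signal, against 11.01, 11.07 and 11.31 in control kidneys. The groups did not overlap, as for 0.961% of all tested genes in that direction, and 0.538% of all genes were apart with diabetic kidneys higher. The Csf1r difference was -0.30 ± 0.09 (adjusted p = 0.0624). With arrays of the same number treated as pairs the adjusted p was 0.025, with arrays 5 and 6 as a batch 0.0421, and with array weights 0.0342. Without arrays 5 and 6 the difference was -0.23 and not called (adjusted p = 0.289). The other probe sets gave -0.13 and -0.10 and were not called.

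**Figure D2:**
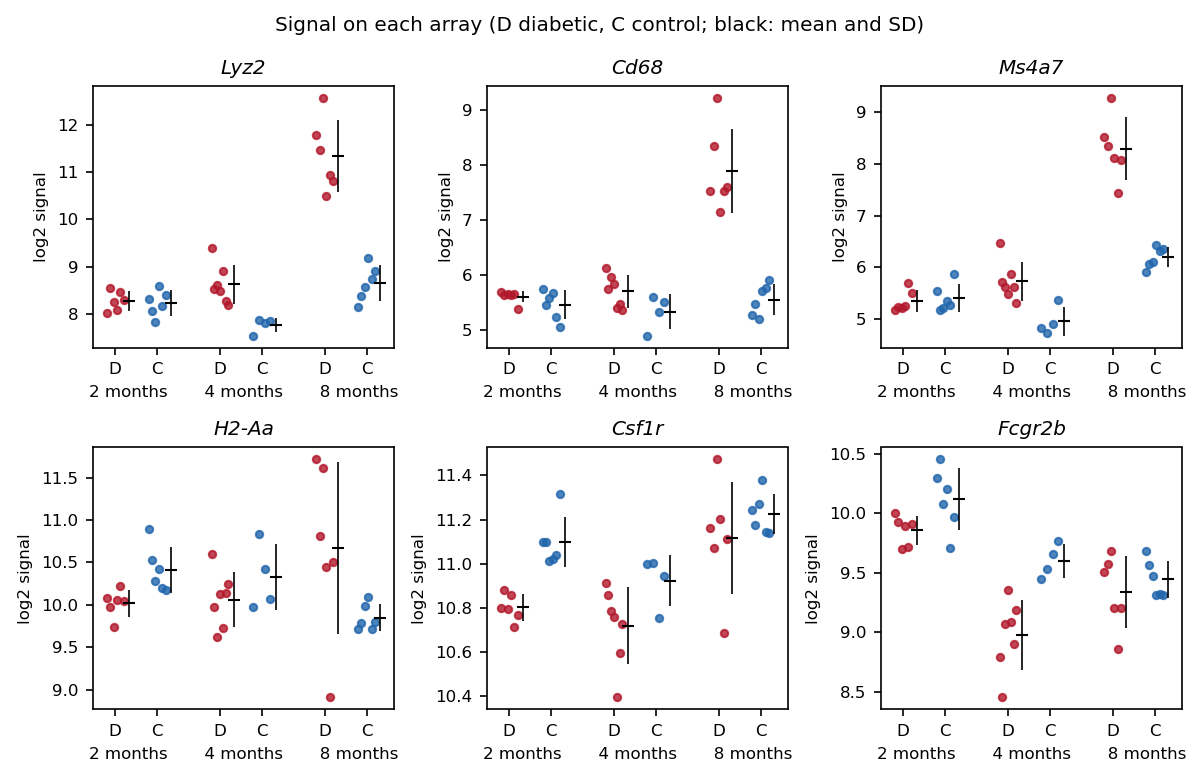
Log2 signal of Lyz2, Cd68, Ms4a7, H2-Aa, Csf1r and Fcgr2b on each array, diabetic (D) left of control (C) at each age, with the mean and SD beside the points. At 8 months the diabetic arrays of Lyz2, Cd68 and Ms4a7 lie above all control arrays, those of H2-Aa spread from 8.91 to 11.71, and those of Csf1r and Fcgr2b overlap the controls.

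Of the leukocyte integrins, Itgb2 encodes the beta chain shared by the family, and Itgam and Itgax encode the alpha chains CD11b and CD11c. Itgb2 signals at 8 months were 7.57 to 9.37 in diabetic kidneys with a median of 8.22, and 6.88 to 7.25 in control kidneys with a median of 7.12. The groups were apart, and Itgb2 rose by 1.22 ± 0.15 (adjusted p = 4.8e-07). Itgax rose by 0.57 ± 0.15, with overlapping arrays from 5.54 to 7.39 in diabetic and 5.69 to 5.90 in control kidneys. Without diabetic array 3 the Itgax difference was 0.36 and still called, and with the 8-month arrays fitted alone the adjusted p was 0.0874. Itgam, below the filter, averaged 4.75 ± 0.39 in diabetic and 4.17 ± 0.16 in control kidneys (SD, n = 6 each), with overlapping arrays.

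The lysozyme genes had the largest differences of the set. Lyz2 encodes the lysozyme of macrophages and Lyz1 that of intestinal Paneth cells, and the products cleave bacterial cell walls. At 8 months the Lyz2 signal was 10.49 at lowest, 11.20 at the median and 12.57 at highest in diabetic kidneys, and 8.14, 8.66 and 9.19 in control kidneys. The groups were more than a log2 unit apart, and Lyz2 rose by 2.69 ± 0.23, or 6.45-fold (adjusted p = 8.81e-10). Lyz1 was read as 10.05, 10.53 and 11.60 in diabetic kidneys and as 7.87, 8.25 and 8.73 in control kidneys, again without overlap. It rose by 2.41 ± 0.21, or 5.32-fold (adjusted p = 1.33e-09).

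Lyz1 and Lyz2 are close copies, and their probe sets may bind each other's transcripts. The brightest Lyz1 probe set carries the suffix that Affymetrix gives to sets shared between sequences. The Lyz1 probe set without that suffix was dim, with a mean of 4.03, and differed by 0.63 ± 0.10 at 8 months. How far the bright Lyz1 set reads Lyz2 was not tested. The copies are also alike before the start of transcription. In the 250 bases upstream, RefSeq sequence on GRCm38.p6 has 200 identical bases in 248 aligned pairs, or 80.6%. The windows lie on the minus strand at chr10:117292869-117293118 for Lyz1 and chr10:117282273-117282522 for Lyz2. They are shown because the pair had the largest rises, and capitals mark the longest run they share, the 50 bases next to the start:
Lyz1: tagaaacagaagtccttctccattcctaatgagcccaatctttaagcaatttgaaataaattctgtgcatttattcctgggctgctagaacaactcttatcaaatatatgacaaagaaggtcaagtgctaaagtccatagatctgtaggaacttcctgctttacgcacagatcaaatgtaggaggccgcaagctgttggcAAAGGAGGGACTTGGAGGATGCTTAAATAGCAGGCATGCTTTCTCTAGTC
Lyz2: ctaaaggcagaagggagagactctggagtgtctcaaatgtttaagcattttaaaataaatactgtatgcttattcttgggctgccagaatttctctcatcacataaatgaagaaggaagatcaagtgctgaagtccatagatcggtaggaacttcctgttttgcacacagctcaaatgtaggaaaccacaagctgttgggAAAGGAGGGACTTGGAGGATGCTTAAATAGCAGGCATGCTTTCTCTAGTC

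The lysozyme genes were also the ones that differed most at 4 months. Lyz1 signals in diabetic kidneys of that age were 9.13 at lowest, 9.44 at the median and 10.39 at highest, against 8.28, 8.73, 8.66 and 8.68 in the control kidneys. The groups did not overlap, as for 2.37% of all tested genes in that direction. Lyz1 rose by 1.00 ± 0.23, or 1.99-fold (adjusted p = 0.0212). Lyz2 ran from 8.19 over 8.52 to 9.38 in diabetic kidneys, against 7.54, 7.86, 7.81 and 7.84 in control kidneys, also apart. Its difference of 0.86 ± 0.25 missed the threshold (adjusted p = 0.0956).

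The Lyz1 call at 4 months rested on few arrays. Without control arrays 3 and 4 the Lyz1 difference was 1.08 with an adjusted p of 0.269. It was 1.09 with an adjusted p of 0.102 in the fit with pairs of the same number, which leaves out diabetic arrays 5 to 7. The call was also lost without diabetic array 5, or without control array 1, 3 or 4 alone.

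Ctss encodes cathepsin S, the lysosomal protease that trims the invariant chain in antigen-presenting cells. Its 8-month signals ran from 9.65 over 10.33 to 11.90 in diabetic kidneys and from 8.69 over 8.95 to 9.16 in control kidneys, without overlap. Ctss rose by 1.56 ± 0.23 (adjusted p = 1.08e-05). At 2 and 4 months its differences were -0.33 ± 0.23 and -0.05 ± 0.25, and neither was called.

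C1q, the recognition molecule of the classical complement pathway, is assembled from the products of C1qa, C1qb and C1qc, and in many tissues macrophages make it. All 3 genes rose together at 8 months, within a narrow range of sizes on their brightest probe sets. Other C1qb probe sets above the filter rose by 1.55 ± 0.22 and by a smaller 1.00 ± 0.15. C1qb signals were 8.67, 9.13 and 10.55 at lowest, median and highest in diabetic kidneys and 7.27, 7.63 and 8.20 in control kidneys. C1qb rose by 1.59 ± 0.22, C1qc by 1.58 ± 0.23 and C1qa by 1.40 ± 0.21 (adjusted p at most 7.11e-06), and none of the 3 overlapped. At 2 months their differences lay between -0.05 and 0.06, and at 4 months between 0.01 and 0.05, without a call.

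Among the adaptors and Fc receptors 6 of 7 genes rose at 8 months. Fcer1g and Tyrobp encode the adaptors that carry the activation motif, called ITAM, for Fc receptors and for receptors such as TREM2. Tyrobp signals at 8 months ran from 8.30 over 9.01 to 10.16 in diabetic and from 7.57 over 7.73 to 7.90 in control kidneys. Tyrobp rose by 1.33 ± 0.17 and Fcer1g by 0.92 ± 0.13 (adjusted p = 1.18e-06 and 6.48e-06), and neither overlapped. Fcgr3, an activating receptor for IgG, ran from 7.02 over 7.52 to 8.92 in diabetic and from 5.87 over 6.08 to 6.50 in control kidneys and rose by 1.57 ± 0.20, or 2.97-fold.

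Fcgr1, the high-affinity IgG receptor, rose by only 0.24 ± 0.08 on its brightest probe set (adjusted p = 0.0441). The call was lost without a filter on dim genes (adjusted p = 0.0527), with the 8-month arrays fitted alone (0.0929), with a clock covariate (0.088), and without diabetic array 1 or 3 or control array 1, 2 or 6. A dimmer Fcgr1 probe set, below the filter with a mean of 4.74, gave 1.05 ± 0.19. The sizes differed more than their errors. Clec7a, the beta-glucan receptor dectin-1, rose by 0.98 ± 0.21 with overlapping arrays, and Trem2, a lipid receptor of macrophages, by 0.85 ± 0.14 without overlap. A dimmer Trem2 probe set, below the filter, gave -0.14 ± 0.08, and the mean of both a rise of 0.36.

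Fcgr2b encodes the inhibitory IgG receptor and was not called at 8 months. Its signal at 8 months was 8.86 at lowest, 9.36 at the median and 9.68 at highest in diabetic kidneys and 9.31, 9.40 and 9.68 in control kidneys. The groups overlapped, and the difference was -0.11 ± 0.13 (adjusted p = 0.65), with a 95% interval from -0.37 to 0.16. The 3 other probe sets above the filter gave -0.22, -0.29 and -0.12, none of them called.

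At 4 months Fcgr2b was the only macrophage or dendritic cell gene that fell. Diabetic kidneys had 8.46, 9.07 and 9.35 as the lowest, median and highest signal, against 9.44, 9.53, 9.65 and 9.76 in control kidneys. The groups did not overlap, as for 2.44% of all tested genes in that direction. Fcgr2b fell by 0.62 on the log2 scale, with an SE of 0.14 (adjusted p = 0.0185). The 3 other probe sets above the filter gave -0.39, -0.70 and -0.53, of which the last was called. Without control arrays 3 and 4 the difference was -0.51 (adjusted p = 0.72), and the call was also lost without control array 3 or 4 alone.

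The MHC class II genes rose at 8 months with the widest spread among diabetic arrays. H2-Aa, H2-Ab1 and H2-Eb1 encode chains of the class II molecules, and Cd74 the invariant chain that guides them to the endosome. The H2-Aa signals of diabetic arrays 1 to 6 were 11.71, 10.82, 11.61, 10.45, 8.91 and 10.50, while control arrays ran from 9.71 over 9.79 to 10.10. Diabetic array 5 lay below every control array and the other 5 above. H2-Aa rose by 0.82 ± 0.26 (adjusted p = 0.0274). The adjusted p was 0.135 with the 8-month arrays fitted alone, 0.102 without diabetic array 1 and 0.11 without diabetic array 3. The call was also lost without control array 1 or control array 2. Other H2-Aa probe sets above the filter gave 0.90 ± 0.28, which was called, and 0.49 ± 0.18, which was not.

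H2-Ab1 spread in the same way, from 9.12 over 10.61 to 11.98 in diabetic kidneys and from 9.19 over 9.44 to 9.83 in control kidneys, and rose by 1.18 ± 0.29. H2-Eb1 rose by 0.97 ± 0.19 and Cd74 by 0.94 ± 0.24, and the Cd74 call was lost with the 8-month arrays fitted alone (adjusted p = 0.0566). Cd83, a surface protein of mature dendritic cells, rose by 0.73 ± 0.17. Array 5 was the lowest of the diabetic arrays for all 5 genes, and array 1 the highest for 4 of them. In the 2-month kidneys all 5 had means below the controls, by -0.24 to -0.45, and none was called.

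The upstream windows of the class II genes with a RefSeq entry are shown because these genes rose together and their promoters are known to hold a CCAAT box, the site of the factor NF-Y. CCAAT was searched on both strands in the 250 bases upstream. It occurred in 15 of 30 windows of the macrophage and dendritic cell genes, and in 33.9% of 32851 windows of all genes. The H2-Aa window is on the minus strand at chr17:34287824-34288073 and the H2-Eb1 window on the plus strand at chr17:34305617-34305866 of GRCm38.p6, and capitals mark the matches, CCAAT, or ATTGG where the match is on the other strand:
H2-Aa: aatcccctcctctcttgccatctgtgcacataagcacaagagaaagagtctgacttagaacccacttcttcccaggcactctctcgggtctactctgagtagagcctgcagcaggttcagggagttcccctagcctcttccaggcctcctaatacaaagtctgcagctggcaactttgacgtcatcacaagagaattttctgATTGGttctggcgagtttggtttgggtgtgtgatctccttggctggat
H2-Eb1: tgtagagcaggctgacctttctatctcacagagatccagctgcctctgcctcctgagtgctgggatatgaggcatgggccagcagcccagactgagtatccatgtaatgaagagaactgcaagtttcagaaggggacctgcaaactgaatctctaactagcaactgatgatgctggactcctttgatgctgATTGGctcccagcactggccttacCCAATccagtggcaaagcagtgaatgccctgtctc
A match is a description of these letters, and binding was not measured.

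Cybb and Cyba encode the membrane subunits of the oxidase that makes superoxide in phagocytes, and of the pair Cybb was called at 8 months. Cybb ran from 7.50 over 8.37 to 9.59 in diabetic kidneys and from 7.11 over 7.56 to 7.60 in control kidneys. The groups overlapped through diabetic array 5, and Cybb rose by 1.01 ± 0.20 (adjusted p = 0.000494). Its other probe sets rose by 1.11 and 0.87. Cyba, which kidney epithelium also uses with Nox4, ran from 12.18 over 12.46 to 12.54 in diabetic and from 12.41 over 12.48 to 12.55 in control kidneys. Its difference of -0.05 ± 0.06 was not called, and the 95% interval from -0.18 to 0.08 covers no rise as large as that of Cybb.

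Among the endotoxin and scavenger receptors, Cd14 encodes the co-receptor for endotoxin, Mrc1 the mannose receptor and Cd163 the receptor for haemoglobin bound to haptoglobin. Cd14 ran from 8.65 over 9.58 to 10.74 in diabetic and from 7.93 over 8.15 to 8.40 in control kidneys at 8 months, and rose by 1.52 ± 0.20, or 2.86-fold. Mrc1 ran from 6.99 over 7.63 to 8.88 in diabetic and from 6.49 over 6.80 to 6.93 in control kidneys, and rose by 1.01 ± 0.19. Neither gene's arrays overlapped. Cd163, below the filter, averaged 4.77 ± 0.39 in diabetic and 4.24 ± 0.13 in control kidneys (SD, n = 6 each), and its arrays were apart.

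Ms4a7 and Ms4a6d encode membrane proteins of the Ms4a family found on macrophages. Ms4a7 signals at 8 months were 7.43, 8.23 and 9.27 at lowest, median and highest in diabetic kidneys and 5.91, 6.21 and 6.42 in control kidneys. The groups were apart by a log2 unit, and Ms4a7 rose by 2.10 ± 0.19, or 4.28-fold (adjusted p = 2.62e-09). Ms4a6d averaged 6.65 ± 0.73 in diabetic kidneys and 4.95 ± 0.21 in control kidneys (SD, n = 6 each), without overlap. The mean of that gene over all arrays was below the filter, so it was not tested.

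At 4 months Ms4a7 had signals from 5.30 over 5.63 to 6.47 in diabetic kidneys, against 4.83, 4.74, 4.90 and 5.36 in control kidneys. The groups overlapped through control array 4 and diabetic array 7, and the difference of 0.77 ± 0.21 missed the threshold (adjusted p = 0.0694). With the arrays of 4 months fitted alone, Ms4a7 and Lyz2 were called there (adjusted p = 0.0447 and 0.0275).

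Gpnmb, a lysosomal glycoprotein of lipid-loaded macrophages, and Lgals3, which encodes galectin-3, closed the list. Gpnmb ran from 6.59 over 7.34 to 8.35 in diabetic and from 5.61 over 5.70 to 5.98 in control kidneys at 8 months, and rose by 1.54 ± 0.17, or 2.91-fold. Lgals3, which tubule cells also make, ran from 10.52 over 11.09 to 12.10 in diabetic and from 10.10 over 10.23 to 10.35 in control kidneys, and rose by 0.96 ± 0.15. Both sets of arrays were apart.

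Some of the genes had more than a single probe set. At 8 months 17 other probe sets above the filter could be compared with the brightest. Of these 16 had the same sign as the brightest, 10 were called in the same direction and 0 were called in the opposite direction. Brightness was not compared between genes, since probe sets differ in how well they bind.

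The difference between diabetic and control kidneys itself changed with age. Growth is used here for a signed difference, diabetic minus control, that moved upward. A downward move can also be a fall that became larger. From 2 to 8 months the difference grew for 28 of the 35 genes, and for 27 of 34 without Aif1. Of all genes 3.01% moved upward and 3.89% in either direction, or 392 upward and 114 downward. After quantile normalization these counts were 445 and 223. The growth was 2.65 ± 0.33 for Lyz2, 2.46 ± 0.30 for Lyz1, 2.19 ± 0.30 for Cd68 and 2.16 ± 0.27 for Ms4a7. From 4 to 8 months the difference grew for 18 of the 35. Of all genes 0.738% moved upward, or 96 upward and 18 downward (115 and 56 after quantile normalization). The comparisons with 8 months share the 8-month arrays. From 2 to 8 months 27 of the genes grew without arrays 5 and 6 of 2 months, where Spi1 lost its call (adjusted p = 0.0848). With arrays paired by number 26 grew, without Spi1 (0.0938) and Aif1 (0.0529). With the mean of all probe sets Trem2 grew by 0.32 and was not called (adjusted p = 0.14).

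The growth from 4 to 8 months depended on the controls of 4 months. Without control arrays 3 and 4 of that age 2 genes kept the call, which were Cd68 and Gpnmb, and with arrays paired by number Gpnmb alone kept it. With all arrays, Cd68 grew by 1.98 ± 0.32 and Gpnmb by 1.44 ± 0.25 (adjusted p = 0.00137 and 0.00236). From 2 to 4 months limma called 0 of the 35 genes and 0 genes of all. At an unadjusted p under 0.05 the counts were 3 and 660, and 30 of the 35 estimates were above 0. The MHC class II genes were called for growth from 2 to 8 months except H2-Aa (1.21 ± 0.37, adjusted p = 0.0584), and none of them from 4 to 8 months.

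The diabetic kidneys of 8 months differed among themselves far more than the controls. For 35 of the 35 tested genes the SD was larger in the diabetic group, with a median SD of 0.643 in diabetic and 0.180 in control kidneys. Over all genes the median SD was 0.156 in diabetic and 0.110 in control kidneys. Diabetic array 3 had the highest signal for 29 of the 35 genes, array 5 the lowest for 25 and array 4 the lowest for 10. The mean over the 35 genes lay above the control mean by 1.46, 1.26, 2.08, 0.71, 0.47 and 0.88 on diabetic arrays 1 to 6. Diabetic array 5 also had the highest signal of the 8-month arrays for the clock gene Arntl (7.81, against 5.31 to 6.77 on control arrays) and the lowest for Dbp (7.32, against 9.48 to 10.88). Diabetic arrays 1 and 2, with larger shifts, also had Dbp below every control array (8.25 and 8.14), with Arntl at 6.97 and 6.73. Without array 5, 32 of the 35 genes were called. The part of the clock in the values of these arrays was not tested.

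The genes did not all place the weaker arrays in the same order. Array 5 was lowest for 7 of the 8 lineage genes, for the 3 C1q chains and for the 5 class II and dendritic cell genes. Array 4 was lowest for both lysozymes and Ctss, and for Lgals3 and Gpnmb. Leaving out any single array of 8 months left between 30 and 32 of the genes called at that age.

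**Figure D3:**
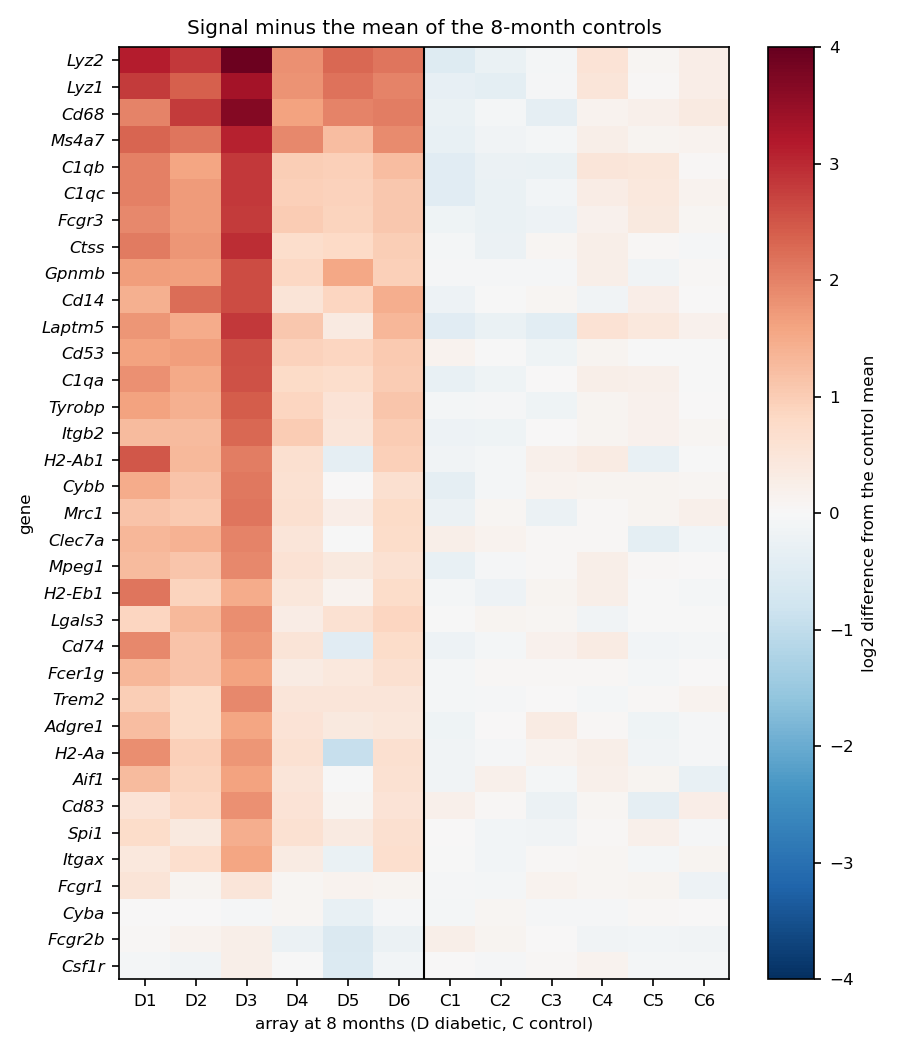
Log2 signal of the 35 tested genes (rows, by size of the difference) on the 12 arrays of 8 months, as the difference from the mean of the control arrays, with diabetic arrays D1 to D6 left of control arrays C1 to C6. Array D3 is darkest for most genes, and D5 is near or below the control mean for the class II genes.

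Markers of tubule injury also stood higher in the diabetic kidneys of 8 months. Lcn2, a secreted marker of damaged tubules, stood at 9.74, 10.84, 11.67, 8.07, 10.71 and 10.31 on diabetic arrays 1 to 6, against 4.97 to 6.03 on control arrays. Havcr1, the gene of kidney injury molecule 1, stood at 9.34, 10.57, 11.03, 8.21, 9.20 and 10.10 on diabetic arrays, against 6.50 to 7.28 on control arrays. Array 3 was highest for both markers, as it was for most macrophage genes, and array 4 lowest. Array 5, with the smallest mean shift of the macrophage genes, had the third highest Lcn2 signal, while its Havcr1 signal was above that of array 4 alone. Array 1 had a mean shift of 1.46, which only array 3 exceeded. Its Lcn2 signal was above that of array 4 alone, and its Havcr1 signal above those of arrays 4 and 5. The 4 injury markers tested all rose, with a median of 2.51, and the mean of the list ran from 8.66 to 11.00 in diabetic and from 6.91 to 7.45 in control kidneys. The part of injury in the differences above was not tested.

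Of 9 tested genes that work with the class II molecules, 5 rose and 0 fell at 8 months, with a median of 0.30. H2-DMa, part of the molecule that loads peptides, rose by 1.10 ± 0.25 and H2-DMb2 by 0.57 ± 0.14. Ifi30, a lysosomal thiol reductase, rose by 0.35 ± 0.09, and Ctsl, a lysosomal protease that tubules also express, by 0.30 ± 0.10.

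Of 5 tested partners of the oxidase, 3 rose and 1 fell. The cytosolic subunits Ncf4 and Ncf1 rose by 0.98 ± 0.13 and 0.71 ± 0.13, and Rac2, the GTPase of blood cells, by 0.87 ± 0.15. Nox4, the oxidase of kidney epithelium, fell by 0.62 with an SE of 0.17 (12.33 ± 0.30 in diabetic and 12.95 ± 0.07 in control kidneys, SD, n = 6 each).

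Of 9 tested genes of signalling below ITAM and Fc receptors, 4 rose, with a list median of 0.21. The kinases Syk and Btk rose by 0.62 ± 0.14 and 0.48 ± 0.13, the inhibitory phosphatase gene Inpp5d by 0.50 ± 0.12, and the Fc receptor gene Fcgr4 by 0.44 ± 0.14.

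The ligands of the CSF1 receptor rose, while Csf1r was not called. Csf1 averaged 8.49 ± 0.39 in diabetic and 7.63 ± 0.23 in control kidneys of 8 months (SD, n = 6 each) and rose by 0.86 ± 0.13 (adjusted p = 1.18e-05). Il34 averaged 6.56 ± 0.63 in diabetic and 5.80 ± 0.14 in control kidneys and rose by 0.76 ± 0.17 (adjusted p = 0.00195). Irf8 and Cebpb, transcription factors of myeloid cells, rose by 0.65 ± 0.15 and 1.09 ± 0.26. In that list of 11 tested genes 5 rose and 0 fell at 8 months, and 1 fell at 2 months.

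Monocyte genes rose in 5 of 6 tested, with a median of 0.99. Ccl2, the chemokine that draws monocytes, rose by 1.84 ± 0.20, S100a4 by 1.40 ± 0.15, F13a1, the factor XIII subunit of monocytes, by 1.19 ± 0.24, and the chemokine receptor gene Cx3cr1 by 0.74 ± 0.14. S100a4 was also called higher at 4 months, by 0.67 ± 0.17 (adjusted p = 0.0395), but without control arrays 3 and 4 the difference was 0.58 with an adjusted p of 0.796. Many cells besides monocytes can make Ccl2 and S100a4.

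Genes that mark dendritic cell subsets rose in 1 of 7 tested, with a median of 0.06, while 9.87% of all genes rose at 8 months. Cd40, a co-stimulatory receptor, rose by 0.32 ± 0.10. The transcription factor gene Zbtb46 differed by -0.12 ± 0.08, the growth factor receptor gene Flt3 by 0.08 ± 0.09 and Itgae, the integrin chain CD103, by 0.09 ± 0.11, and these were not called. Of the 12 genes listed, 11 were measured and 4 of these lay below the filter.

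Genes of resident and alternatively activated macrophages rose in 5 of 8 tested, with a median of 0.58. The lectin gene Clec10a rose by 1.75 ± 0.21, the chemokine gene Ccl8 by 1.67 ± 0.27, the scavenger receptor gene Stab1 by 0.50 ± 0.10 and the receptor kinase gene Axl by 0.60 ± 0.17. Of 8 tested genes of lipid-associated macrophages 3 rose and 1 fell, with a median of 0.22. Apoe rose by 0.87 ± 0.17, the lipid droplet gene Plin2 by 0.76 ± 0.16 and the fatty acid carrier gene Fabp5 by 0.49 ± 0.15. Lpl, which encodes lipoprotein lipase, fell by 1.01 with an SE of 0.15, and was also lower at 2 months (-0.96 ± 0.15) and 4 months (-0.86 ± 0.16), so it was called at all 3 ages. Without control arrays 3 and 4 the Lpl difference at 4 months was -0.71 and not called (adjusted p = 0.341), while without arrays 5 and 6 it was -0.88 at 2 months and still called (adjusted p = 0.00887).

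**Figure D4:**
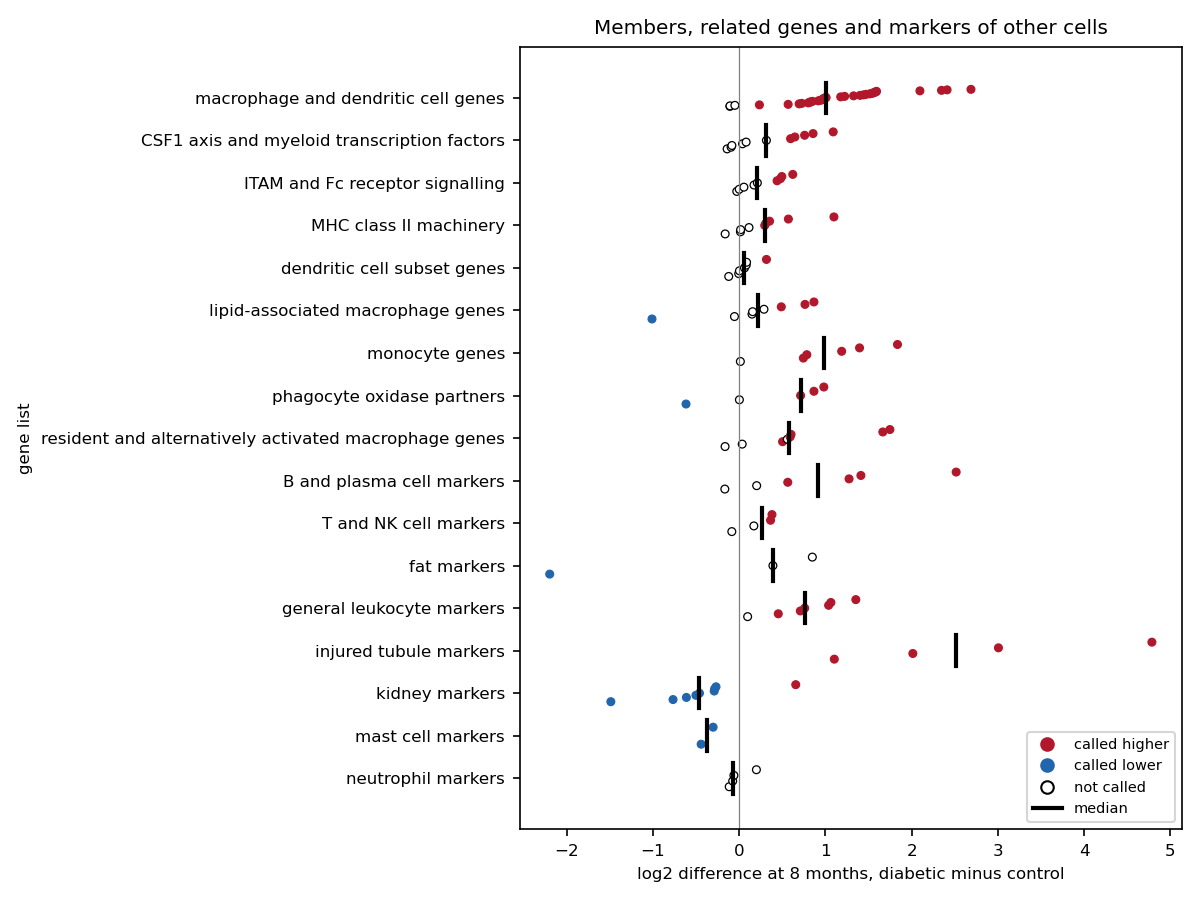
Log2 difference at 8 months, diabetic minus control, for each tested gene of the macrophage and dendritic cell set, of 8 lists of related genes and of 8 lists of markers for other cells (points), with the median of each list (bar). The median is 1.01 for the set, 0.99 for monocyte genes, 0.06 for dendritic cell subset genes and 2.51 for injured tubule markers.

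Some markers of other leukocytes rose at 8 months, and their part in the differences above was not tested. Of 7 general leukocyte markers 6 rose, among them Coro1a by 1.35 ± 0.18, Lcp1 by 0.71 ± 0.11 and Lsp1 by 0.76 ± 0.13, and the mean of the list ran from 7.44 to 8.88 in diabetic and from 7.21 to 7.49 in control kidneys. Of 6 markers of B and plasma cells 4 rose, led by the IgM heavy chain gene Ighm (2.52 ± 0.21), Mzb1 (1.27 ± 0.15) and Cd79a (0.56 ± 0.13), with list means from 7.22 to 8.68 in diabetic and from 6.83 to 7.30 in control kidneys. Cd79a lay close to the filter, with a mean of 5.30 over all arrays. Whether only the diabetic kidneys of 8 months brought it past was not checked. B cells share Cd74 and the class II genes with macrophages. Of 4 tested markers of T and NK cells 2 rose, Cd3e by 0.36 ± 0.10 and Cd3d by 0.38 ± 0.13, while Cd4 gave 0.17 ± 0.09. Their list means were 6.02 to 6.57 in diabetic and 5.98 to 6.18 in control kidneys.

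Neutrophil markers were not called. Of 10 measured, 4 passed the filter, and Csf3r, Ngp and Elane differed by 0.20 ± 0.10, -0.12 ± 0.11 and -0.06 ± 0.08, with list means from 5.71 to 6.17 in diabetic and from 5.85 to 6.00 in control kidneys. Of 5 measured markers of mast cells, 2 passed the filter and both fell at 8 months, Kit by 0.44 and Tpsb2 by 0.30. Their list means ran from 6.63 to 6.76 in diabetic and from 6.88 to 7.28 in control kidneys. Kit was also called lower at 2 and 4 months. That call was lost at 2 months without arrays 5 and 6, and at 4 months without control arrays 3 and 4. Of 3 fat markers Ucp1 fell by 2.20, and Fabp4 and Adipoq differed by 0.39 ± 0.18 and 0.85 ± 0.83 without a call, with list means from 8.17 to 8.73 in diabetic and from 6.60 to 9.63 in control kidneys. Alas2, the only red blood cell marker tested, differed by 0.94 ± 0.38 without a call. Of 9 markers of kidney cell types 1 rose, Aqp2 of the collecting duct by 0.66, named after its value was seen, and 8 fell, among them Slc12a3 by 0.77, Umod by 0.29 and Slc5a2 by 0.46, with list means from 11.60 to 12.14 in diabetic and from 12.24 to 12.30 in control kidneys.

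PU.1, the product of Spi1, binds DNA around the letters GAGGAA, the PU box. GAGGAA was searched on both strands of the 250 bases upstream of 27 of the 38 genes, those with a RefSeq promoter entry, in 30 windows because some genes have several starts. It occurred in 15 of the 30 windows, from 13 genes, and in 23.3% of 32851 windows of all genes. The longer form GAGGAAGT, which contains it, occurred in 1 of the 30 windows and in 2.44% of all windows. Some of the windows of a gene overlap. C1qb and Cd68 are shown as called genes with a match on the strand printed, from the minus strand at chr4:136886201-136886450 and chr11:69666171-69666420 of GRCm38.p6, with GAGGAA in capitals:
C1qb: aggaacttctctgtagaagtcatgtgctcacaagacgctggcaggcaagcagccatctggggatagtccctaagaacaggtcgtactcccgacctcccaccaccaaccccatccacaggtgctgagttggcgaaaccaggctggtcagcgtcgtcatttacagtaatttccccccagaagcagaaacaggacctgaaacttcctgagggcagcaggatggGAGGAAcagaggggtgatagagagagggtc
Cd68: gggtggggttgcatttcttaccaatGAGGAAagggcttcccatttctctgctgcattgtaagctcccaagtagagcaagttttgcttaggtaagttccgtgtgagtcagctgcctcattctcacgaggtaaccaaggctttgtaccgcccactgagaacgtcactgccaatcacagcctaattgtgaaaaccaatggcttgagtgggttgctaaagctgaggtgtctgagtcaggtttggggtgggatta
The match in C1qb starts 30 bases before the transcription start and that in Cd68 225 bases before it. The Lyz1 and Lyz2 windows shown above hold no GAGGAA. The presence of the letters was not tested against the size of the differences.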

How the data were processed

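Total RNA of whole kidneys was extracted with Trizol and 5 ug were labelled with biotin for Affymetrix arrays, per the labels. The values deposited by the authors are log2 signals of 45101 probe sets, as their range of 2.02 to 14.96 shows, and how background was corrected and arrays were normalized is not given in the sources used here. Of the probe sets 34945 name a single gene in GEO's platform annotation, and those were used. Mean signals of the arrays differed between ages (6.43 to 6.44 at 2 months, 6.02 to 6.04 at 4 months, 6.54 at 8 months), so diabetic and control kidneys were compared within an age.

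The brightest probe set by mean over all 35 arrays stood for each gene. Genes below a mean of 5.27, the 40th percentile of probe sets, were left out. A mean per group was fitted to all arrays with limma 3.58.1 (lmFit and eBayes) in R 4.3.3 and data.table (version 1.17.8), with 29 residual degrees of freedom. Contrasts were diabetic minus control at each age and the differences of these between ages. Two-sided p-values were adjusted by Benjamini-Hochberg over the 13004 genes and called under 0.05. Errors after a difference are SE of the fit, and errors after a mean are SD. Because the groups share 1 variance per gene while diabetic arrays of 8 months varied more, SE of that comparison tend to be too small. The script was tested on simulated data. The number of arrays limits the precision.

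The members of the set, the 8 lists of related genes and the 10 marker lists were chosen with earlier results of these data known. All 38 members are named, with up to 4 genes of each related list and up to 3 of each marker list by the smallest p at 8 months. Genes whose probe sets have no single-gene annotation were not analysed here. The 2 clock genes, Arntl and Dbp, served as a covariate and were not called at any age.

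The labels number the arrays of both groups without calling them pairs. After removal of group means, same-numbered arrays were correlated with r from 0.246 to 0.444 at 2 months (6 of 6 pairs over 0.1), with 1 of 4 pairs over 0.1 at 4 months and 2 of 6 at 8 months. Arrays of different numbers were not compared in this way, and at 2 months arrays 5 and 6 of both groups stood apart. The correlations therefore do not show pairs. Array numbers were used as a block in an alternative fit. Other alternatives were the mean of all probe sets, no filter or a stricter one, 3 other scalings, the arrays of an age alone, robust moderation, array weights, clock and beta-actin covariates, and arrays left out. The counts without Aif1, and S100a4, Lpl and Kit without the arrays that stand apart, were chosen after seeing the data. Upstream sequences are from RefSeq (GRCm38.p6), aligned with Biopython 1.88, and figures were drawn with matplotlib 3.10.9.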

Additional observations from a re-analysis of the deposited data

Results flagged for a closer look

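Within the groups of 4 to 7 arrays, 228 sets of values were checked for an array far from the rest of its group, and 27 were found. The rule is set to pick about 1 in 20 of independent sets by chance. These sets share arrays, and several genes were often picked on the same array, so the count was not tested against chance. At 2 months control array 6, which has the high beta-actin ratio, stood apart for 6 genes, with Csf1r at 11.31, Trem2 at 6.39, H2-Eb1 at 6.96 and Cd14 at 8.79 above its group, and Cd53 at 5.81 and Cyba at 12.68 below it. Diabetic array 6 of that age was low for Cd68 (5.39), C1qa (7.38), C1qb (7.09) and C1qc (6.33). Other arrays of 2 months stood apart for a single gene each, which were Ctss at 8.80 on control array 1, Itgam at 4.45 on control array 3, Fcer1g at 6.19 on control array 5 and H2-Eb1 at 6.04 on diabetic array 3.

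At 4 months diabetic array 1 was high for Mpeg1 (7.75), Laptm5 (7.36), Itgb2 (6.40), Ctss (9.25) and Cybb (7.09), and it had the highest signal of its group for 24 of the 35 tested genes. Its mean over these genes lay 0.47 above the control mean, while the other 6 diabetic arrays lay between -0.02 and 0.10. Diabetic array 4 was high for Fcgr1 (5.90). Control array 1 was low for Cd53 (6.19), Lyz1 (8.28) and Clec7a (5.39). At 8 months diabetic array 3 was high for Spi1 (7.12), Trem2 (7.05) and Cd163 (5.52), and diabetic array 5 low for Cyba (12.18). No cause was tested for these arrays.

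The diabetes difference itself differed between ages for 28 genes by the limma test of that difference, adjusted over all genes. From 4 to 8 months Spi1 grew by 0.70. From 2 to 8 months the growth was 0.76 for Adgre1, 1.03 for Mpeg1, 0.85 for Aif1, 1.75 for Laptm5, 1.46 for Cd53, 2.19 for Cd68 and 1.32 for Itgb2. The call of Aif1 carries little weight, since only the diabetic kidneys of 8 months brought that gene past the filter. The growth was 2.46 for Lyz1, 2.65 for Lyz2, 1.89 for Ctss, 1.35 for C1qa, 1.64 for C1qb and 1.53 for C1qc. For the adaptors and receptors it was 1.35 for Tyrobp, 0.88 for Fcer1g, 1.53 for Fcgr3, 1.24 for Clec7a and 0.87 for Trem2. For the class II group it was 1.25 for Cd74, 1.63 for H2-Ab1, 1.21 for H2-Eb1 and 0.97 for Cd83. It was 1.22 for Cybb, 1.60 for Cd14, 2.16 for Ms4a7, 1.26 for Lgals3 and 1.50 for Gpnmb.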

How the results depend on the processing

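Across 15 alternatives and 35 fits without a single array, no called difference turned its direction. The precision rests on 4 to 7 arrays a group. The 32 calls at 8 months became 19 under the stricter filter, which left 22 of the genes to test, and lay between 28 and 34 otherwise. With the replicate block, 1 member was called at 2 months (Csf1r) and 1 at 4 months (Fcgr2b), 32 at 8 months, and 1 for 8 minus 4 months, and 553 genes of all at 2 months and 19 for 8 minus 4 months. Same-numbered arrays were correlated at 2 months, but arrays 5 and 6 of both groups stood apart there, so the correlation cannot show pairs. At that age the block changed the call of Csf1r. For 8 minus 2 months 26 members were called in place of 28.

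Array weights gave 2 members at 2 months (Csf1r and Fcgr2b) and 5 at 4 months. Over all genes they gave 1296, 942, 61 (4 minus 2 months), 458 (8 minus 4 months) and 1118 (8 minus 2 months). The arrays of the age alone gave 4 members at 4 months and 11 for 8 minus 4 months, and 64 genes of all at 2 months, 358 at 4 months, 2 for 4 minus 2 months and 277 for 8 minus 2 months. Without control arrays 3 and 4 at 4 months, 0 members were called at 4 months (5 genes of all), 2 for 8 minus 4 months (14 of all) and 1 gene for 4 minus 2 months. Arrays 5 and 6 as a batch gave 1 member and 696 genes at 2 months and 854 genes for 8 minus 2 months. Leaving these arrays out gave 7 genes for 4 minus 2 months. The clock covariate gave 11 members and 36 genes for 8 minus 4 months, the stricter filter 68 genes there and 17 members for 8 minus 2 months, and arrays scaled to one mean and SD 222 genes for 8 minus 4 months. The main counts over all genes were 330, 126 and 2187 at the 3 ages, and 0, 114 and 506 between them.

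Without a single array, members called ranged from 0 to 0 at 2 months, 0 to 3 at 4 months, 30 to 32 at 8 months, 0 to 0 for 4 minus 2, 10 to 26 for 8 minus 4 (lowest without control array 2 of 4 months) and 25 to 30 for 8 minus 2 months. All genes ranged from 192 to 515, 29 to 135, 1633 to 2329, 0 to 2, 64 to 260 and 329 to 759. The lowest of these counts, in the same order, came without control array 2 of 2 months, control array 4 of 4 months, diabetic array 3 of 8 months, diabetic array 1 of 2 months among others, control array 2 of 4 months and diabetic array 3 of 8 months. The cause was not tested.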

Other observations

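In control kidneys alone, the signal of some macrophage genes differed between ages. Cybb averaged 5.27 ± 0.16 at 2 months (SD, n = 6), 6.36 ± 0.17 at 4 months (n = 4) and 7.47 ± 0.19 at 8 months (n = 6), a difference of 2.20 between 8 and 2 months that was 2.23 after quantile normalization of all arrays. Ms4a7 differed by 0.79, Itgb2 by 0.72 and Cd53 by 0.65 in the same direction, without overlap. Trem2 averaged 5.13 ± 0.09 at 8 months and 6.12 ± 0.15 at 2 months, and Fcgr2b 9.45 ± 0.16 and 10.12 ± 0.26, both lower at 8 months without overlap. Of the 35 tested genes 8 were higher and 4 lower at 8 months without overlap, against 13% and 28% of all tested genes. Age and array batch cannot be told apart here, and these values were not tested. The genes were picked after their values were seen.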
